A study of Homo sapiens with 3 samples.

Results

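The comparison set a stable A375SM melanoma population carrying a short hairpin RNA against PRAME beside the population carrying the control vector. Its members were all genes with a mean raw count of at least 50 over the 3 deposited libraries, which 11956 of 24424 listed genes reached. It used 2 of the 3 libraries, shPRAME and shEmpty. The third, with a hairpin against BAP1 (shBAP1), is given as a further level beside part of the named genes. A375SM is a metastatic derivative of the human melanoma line A375. All 3 populations were infected with lentiviral vectors that also carry a green fluorescent reporter, selected for that reporter to give stable populations, and grown in DMEM with serum. The shPRAME library has the genotype PRAME knockdown, the shBAP1 library BAP1 knockdown and the shEmpty library WT. The control is named as an empty vector in its title and as a non-targeting hairpin in the design text, so whether it holds a hairpin could not be settled. Each target was lowered with 1 hairpin vector in 1 population, and effects of the hairpin on other transcripts cannot be told apart from effects of lowering PRAME.

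PRAME is a cancer-testis antigen, a protein made in the testis and in many melanomas but in few other adult tissues. It is a leucine-rich repeat protein that serves as a substrate receptor of the CUL2 ubiquitin ligase, and it is also known to repress transcription driven by retinoic acid receptors. In pigmented skin lesions its staining is used to help tell melanoma from benign naevi. The comparison addresses which transcripts differ from the control when its messenger is lowered.

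With 1 library on each side, differences are described by their size, without a replicate check or a p-value. The libraries held 19430130 counts (shEmpty), 18456328 counts (shPRAME) and 14181829 counts (shBAP1), over 17386, 17980 and 17505 genes. Levels are given as CPM, the count scaled to the library's size and not to transcript length, so they are set side by side between libraries for 1 gene and not between genes. A fold is the ratio of 2 such levels. A gene was called higher or lower where its level in shPRAME was at least 2-fold from that in shEmpty and the ratio's exact 95% counting interval did not include 1. The interval stands in parentheses after a fold. Intervals and floors cover counting error only, and fewer cells of a kind cannot be told apart from less RNA per cell. A count of 0 allows up to 3 counts, or 0.160 CPM in shEmpty, 0.164 in shPRAME and 0.202 in shBAP1.

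PRAME was read in every library and was lowest where its hairpin was present. Its raw count was 6132 in shEmpty, 1966 in shPRAME and 6748 in shBAP1. Scaled levels were 327 CPM in shEmpty, 108 CPM in shPRAME and 455 CPM in shBAP1. The shPRAME level was 3.04-fold (2.89 to 3.2) lower than in shEmpty, so 32.9% of the transcript remained. PRAME ranked 288th by the near bound of the interval among the genes called lower, and 70th by its difference in CPM. Many transcripts therefore differed between these libraries by more than the target did.

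Of the 11955 measured genes with a ratio, 2311 (19.3%) were called, 1225 higher (10.2%) and 1086 lower (9.08%) in shPRAME. 1 further gene had no count in either library. The median log2 ratio of all measured genes was -0.06, with quartiles of -0.50 and 0.43, and 7035 genes (58.8%) lay within 1.5-fold. Large differences were more often upward: 372 genes were at least 4-fold higher and 211 lower, and 60 genes were at least 32-fold higher and 15 lower. Genes called higher took up 5.14% of all counts in shEmpty and 16.4% in shPRAME, while genes called lower went from 11.6% to 4.53%. The sets were picked by the ratio of these 2 libraries, so the direction of both shifts follows from the calls. In shBAP1 the same sets took up 5.28% and 9.98%. Higher calls were most frequent among scarce genes, with 495 in the fifth of genes with the lowest mean level and 188 in the fifth with the highest. The median log2 ratio was 0.17 among the former and -0.16 among the latter. The 8 genes exactly at the minimum had 26 to 127 counts in shEmpty and 11 to 111 in shPRAME, and the 9 genes just under it, at a mean of 49.7, had 25 to 87 and 12 to 110.

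**Figure D1:**
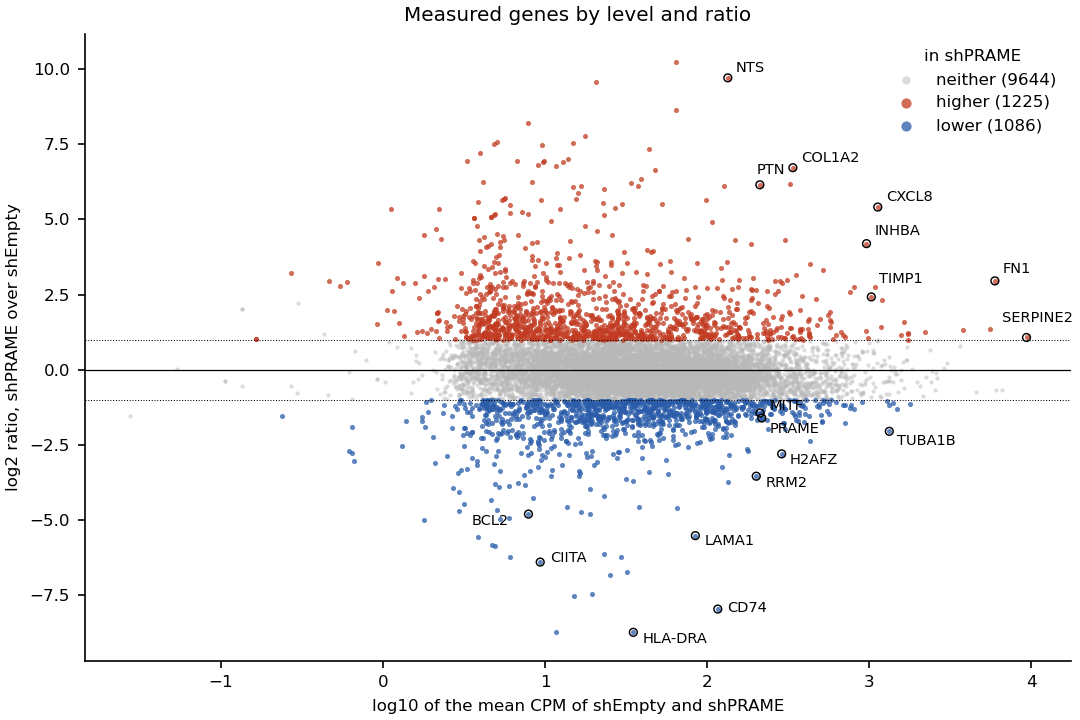
Each point is 1 of 11955 measured genes; the horizontal axis is the log10 of its mean CPM in shEmpty and shPRAME and the vertical axis its log2 ratio of shPRAME over shEmpty, with dotted lines at the 2-fold limit. The 1225 genes called higher and 1086 called lower are coloured, PRAME lies at a log2 ratio of -1.61, and the farthest points are on the upper side.

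Genes that copy DNA were lower in shPRAME almost throughout. Of 39 measured genes of origin licensing and replication forks, 32 were called lower and none higher, against 9.08% lower among all measured genes, and all 39 ratios were below 1. The median log2 ratio of the list was -1.36, beside -0.06 for all genes. CDC6, which loads the replicative helicase at origins, was at 112 CPM in shEmpty, 20.1 CPM in shPRAME and 75.6 CPM in shBAP1, 5.58-fold (4.99 to 6.25) lower in shPRAME. CLSPN, the checkpoint adaptor claspin, was at 108 CPM in shEmpty, 18.8 CPM in shPRAME and 85.5 CPM in shBAP1, 5.74-fold (5.11 to 6.45) lower. In both genes shPRAME was the lowest of the 3 libraries and shEmpty the highest. DTL, the substrate receptor that clears the licensing factor CDT1, had 146 CPM in shEmpty and 27 CPM in shPRAME, and MCM10, which helps activate the helicase, had 69.4 CPM in shEmpty and 13.5 CPM in shPRAME. The members that were not called still lay below shEmpty: MCM7, a subunit of the helicase itself, was at 425 and 252 CPM, a ratio of 1.68-fold downward.

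The promoters of CDC6 and CLSPN are shown because they hold an E2F site, the element bound by the E2F factors that time S-phase transcription. The capitals mark TTTGGCGC in CDC6, at transcribed bases 8 to 15, and GCGGGAAA, the reverse of TTTCCCGC, in CLSPN, from 5 bases before the start to base 3. Both stretches run from 150 bases before to 25 after the start and are RefSeq sequence of build GRCh38.p14.
CDC6 (chr17:40287729-40287903, plus strand): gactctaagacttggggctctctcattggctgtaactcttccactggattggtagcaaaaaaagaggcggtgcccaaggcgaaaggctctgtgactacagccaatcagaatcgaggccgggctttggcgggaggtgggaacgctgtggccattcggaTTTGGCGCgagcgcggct
CLSPN (chr1:35769954-35770128, minus strand): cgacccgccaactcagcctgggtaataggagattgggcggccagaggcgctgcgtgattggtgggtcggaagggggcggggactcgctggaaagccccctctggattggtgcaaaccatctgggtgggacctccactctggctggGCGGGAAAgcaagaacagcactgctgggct
A search of 300 bases, 250 before to 50 after the start, on both strands for TTTCCCGC, TTTGGCGC or TTTCGCGC found any of the 3 E2F sites in 2.79% of all promoters and in 4.72% of promoters of all measured genes. They were in 18 of 34 promoters of origin licensing and replication forks (52.9%), in 9.27% of 874 promoters of genes called lower and in 1.51% of 930 promoters of genes called higher. A match describes the letters in this window and is not evidence of binding.

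Nucleotide synthesis genes were lower as well, 10 of 21 called lower, none higher, with a median log2 ratio of -0.93. RRM2, the regulated subunit of ribonucleotide reductase, was at 370.3 CPM in shEmpty, 31.8 CPM in shPRAME and 237 CPM in shBAP1, 11.7-fold (10.7 to 12.7) lower in shPRAME. Thymidylate synthase (TYMS) was at 197 CPM in shEmpty, 52.1 CPM in shPRAME and 62 CPM in shBAP1. TYMS in shBAP1 lay near its shPRAME level, while RRM2 in shBAP1 lay nearer shEmpty. All 11 members that were not called had ratios below 1, among them CAD, which starts pyrimidine synthesis (199.9 and 132 CPM).

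Genes listed as replication-coupled chromatin factors were lower too, with 16 of 22 called lower and none higher (median log2 ratio -1.34). Membership of this list does not show that a gene acts at the fork. The histone variant gene H2AFZ was at 505 CPM in shEmpty, 72.5 CPM in shPRAME and 351 CPM in shBAP1, 6.96-fold (6.57 to 7.38) lower. Lamin B1 (LMNB1), a filament of the nuclear envelope, was at 209 CPM in shEmpty, 43.8 CPM in shPRAME and 175 CPM in shBAP1. CHAF1A, a subunit of the assembly factor that places new histones, had 97.6 CPM in shEmpty and 25.1 CPM in shPRAME, and the abundant DNA-bending protein HMGB1 had 1097 CPM in shEmpty and 322 CPM in shPRAME. TOP2A, which untangles replicated DNA, stayed just inside the limit at 645 and 342 CPM.

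Genes of mitosis formed the list with the largest share called lower. Of 24 mitotic cyclins, kinases and phosphatases 23 were called lower, with a median log2 ratio of -1.54, and WEE1, the kinase that holds CDK1 inactive, was the exception at 57.8 CPM in shEmpty, 56.1 CPM in shPRAME and 29.4 CPM in shBAP1. CDC25A, the phosphatase that activates cyclin-dependent kinases, was at 45.7 CPM in shEmpty, 6.62 CPM in shPRAME and 38.7 CPM in shBAP1, 6.91-fold (5.71 to 8.43) lower. CDK1, the kinase that drives entry into mitosis, was at 208 CPM in shEmpty, 53.6 CPM in shPRAME and 74.2 CPM in shBAP1, 3.87-fold (3.61 to 4.16) lower. Its partner cyclin B1 (CCNB1) had 274 CPM in shEmpty and 105 CPM in shPRAME, and the spindle kinase AURKA had 165 CPM in shEmpty and 38.2 CPM in shPRAME. CDK1 was also low in shBAP1, at a level between the other two but nearer shPRAME, whereas CDC25A in shBAP1 was close to shEmpty.

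Of 43 centromere and kinetochore genes 30 were called lower and none higher (median log2 ratio -1.51). ZWINT, a kinetochore scaffold partner, was at 129.5 CPM in shEmpty, 22 CPM in shPRAME and 60.6 CPM in shBAP1, 5.89-fold (5.3 to 6.56) lower. SKA1, which keeps kinetochores attached to microtubule ends, was at 49 CPM in shEmpty, 7.44 CPM in shPRAME and 19.7 CPM in shBAP1, 6.59-fold (5.5 to 7.95) lower. NDC80, the main microtubule-binding subunit, had 67.9 CPM in shEmpty and 13.3 CPM in shPRAME. Among 13 kinesins that work in mitosis 12 were called lower, with a median of -1.40. KIF23, needed for the last cut between daughter cells, was at 177 CPM in shEmpty, 36.8 CPM in shPRAME and 114 CPM in shBAP1, 4.8-fold (4.41 to 5.22) lower. The 16 measured kinesins that carry cargo gave another picture, 3 higher, 1 lower and a median of 0.02, which became -0.15 once trends with transcript length and GC content were removed. KIF21B, a neuronal transport kinesin, was at 6.94 CPM in shEmpty, 208 CPM in shPRAME and 18.4 CPM in shBAP1, 30-fold (25.2 to 36) higher, while conventional kinesin KIF5B was at 604 and 474 CPM.

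The promoters of KIF23 and ZWINT are shown because they hold both a CCAAT box and the cell cycle homology region bound by the DREAM and MuvB complexes. In KIF23 the capitals mark the box on the reverse strand (ATTGG, 64 to 60 bases before the start) and TTTGAA (55 to 50 before). In ZWINT they mark CCAAT at 116 to 112 and 66 to 62 bases before the start and the reverse of TTTGAA at 31 to 26 before. Sequences are from RefSeq, build GRCh38.p14.
KIF23 (chr15:69414199-69414373, plus strand): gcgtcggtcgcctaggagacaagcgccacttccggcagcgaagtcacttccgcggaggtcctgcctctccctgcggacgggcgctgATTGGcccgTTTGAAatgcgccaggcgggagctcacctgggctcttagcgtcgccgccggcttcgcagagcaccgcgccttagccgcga
ZWINT (chr10:56361235-56361409, minus strand): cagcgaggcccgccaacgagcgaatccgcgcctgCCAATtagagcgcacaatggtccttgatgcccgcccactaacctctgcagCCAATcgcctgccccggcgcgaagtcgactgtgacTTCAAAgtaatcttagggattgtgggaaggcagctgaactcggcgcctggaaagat
A CCAAT box together with TTTGAA or TTCGAA, on either strand of the 300 bases, was in 6.58% of all promoters and 4.81% of promoters of all measured genes. The pair was in 10 of 13 promoters of mitotic kinesins (76.9%), 14 of 34 of centromere and kinetochore genes (41.2%), 7 of 18 of mitotic cyclins, kinases and phosphatases (38.9%) and 1 of 11 of transport kinesins (9.09%). Among genes called lower its share was 12.7%, and among genes called higher 4.52%. The pair was thus frequent in the mitotic promoters and rare in those of origin licensing and replication forks, where 1 of 34 held it (2.94%).

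**Figure D2:**
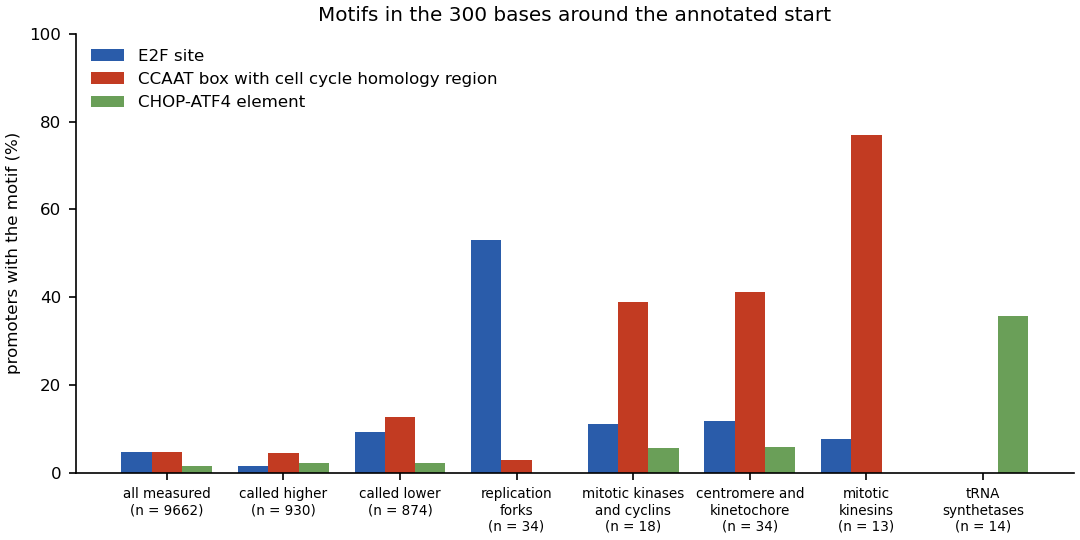
Bars give the share of promoters (percent, 300 bases around the RefSeq start) that hold an E2F site, a CCAAT box with a cell cycle homology region, or a CHOP-ATF4 element, for all measured genes, the called genes and 5 gene lists, with the number of promoters below each. The E2F bar is tallest for replication forks (52.9%), the CCAAT pair for mitotic kinesins (76.9%) and the CHOP-ATF4 element for tRNA synthetases (35.7%).

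Other parts of the division machinery were lower to a smaller extent. Condensin and cohesin genes had 10 of 21 called lower, the anaphase-promoting complex and its substrates 6 of 21, centriole and centrosome genes 7 of 19 and cytokinesis genes 6 of 17, with none higher in any of them. Their medians were -0.93, -0.65, -0.65 and -0.43. CDCA5 (sororin), which protects cohesion, was at 79.4 and 18.2 CPM, while the cohesin ring subunit RAD21 was at 694 and 551 CPM. Separase (ESPL1), the protease that opens the ring, had 136 CPM in shEmpty and 41.4 CPM in shPRAME. STAG2, another subunit of the ring, lay near a ratio of 1 at 276 and 267 CPM.

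Of 35 Fanconi and homologous recombination genes 19 were called lower and 1 higher (median log2 ratio -1.04), while end joining and excision repair genes had 2 of 27 lower and none higher (median -0.31). BRCA1 was at 115 CPM in shEmpty, 38.1 CPM in shPRAME and 62.1 CPM in shBAP1, 3.02-fold (2.77 to 3.29) lower. PRKDC, the catalytic subunit of the end-joining kinase, was at 1766 and 1397 CPM. RAD50, a subunit of the MRN complex that binds broken ends, went the other way, from 20.7 to 75.9 CPM, and was also high in shBAP1 at 80.6 CPM. The genes of its partners MRE11A and NBN were not called (59.8 and 40.8, 146 and 125 CPM).

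Regulators of the cell cycle were less uniform. Of 21 E2F, DREAM and RB family genes 9 were called lower and 1 higher (median log2 ratio -0.79). FOXM1, the activator of late cell cycle genes, was at 229.7 CPM in shEmpty, 51 CPM in shPRAME and 146 CPM in shBAP1, and MYBL2, its partner in the MuvB complex, at 174 CPM in shEmpty, 34.9 CPM in shPRAME and 82.2 CPM in shBAP1. The repressor E2F5 was higher, at 4.16 and 13 CPM, and the tumour suppressor RB1 was at 77.7 and 70.01 CPM. Among 14 measured cyclins of the D and E classes, their kinases and inhibitors, 5 were called lower and 1 higher. Cyclin E2 (CCNE2) had 58 CPM in shEmpty and 13 CPM in shPRAME, whereas cyclin D1 (CCND1) was at 558 CPM in shEmpty, 844 CPM in shPRAME and 134 CPM in shBAP1, a ratio of 1.51-fold upward that was not called. The inhibitor gene CDKN1A was at 102 CPM in shEmpty, 155 CPM in shPRAME and 190.2 CPM in shBAP1. The INK4 gene CDKN2A, scarce in all 3 libraries, had 1.6 and 5.58 CPM, 3.48-fold (2.3 to 5.42) higher. MKI67, the proliferation marker Ki-67, was at 787 CPM in shEmpty, 242 CPM in shPRAME and 405 CPM in shBAP1. It was among the 15 genes called lower with the largest drops in CPM.

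**Figure D3:**
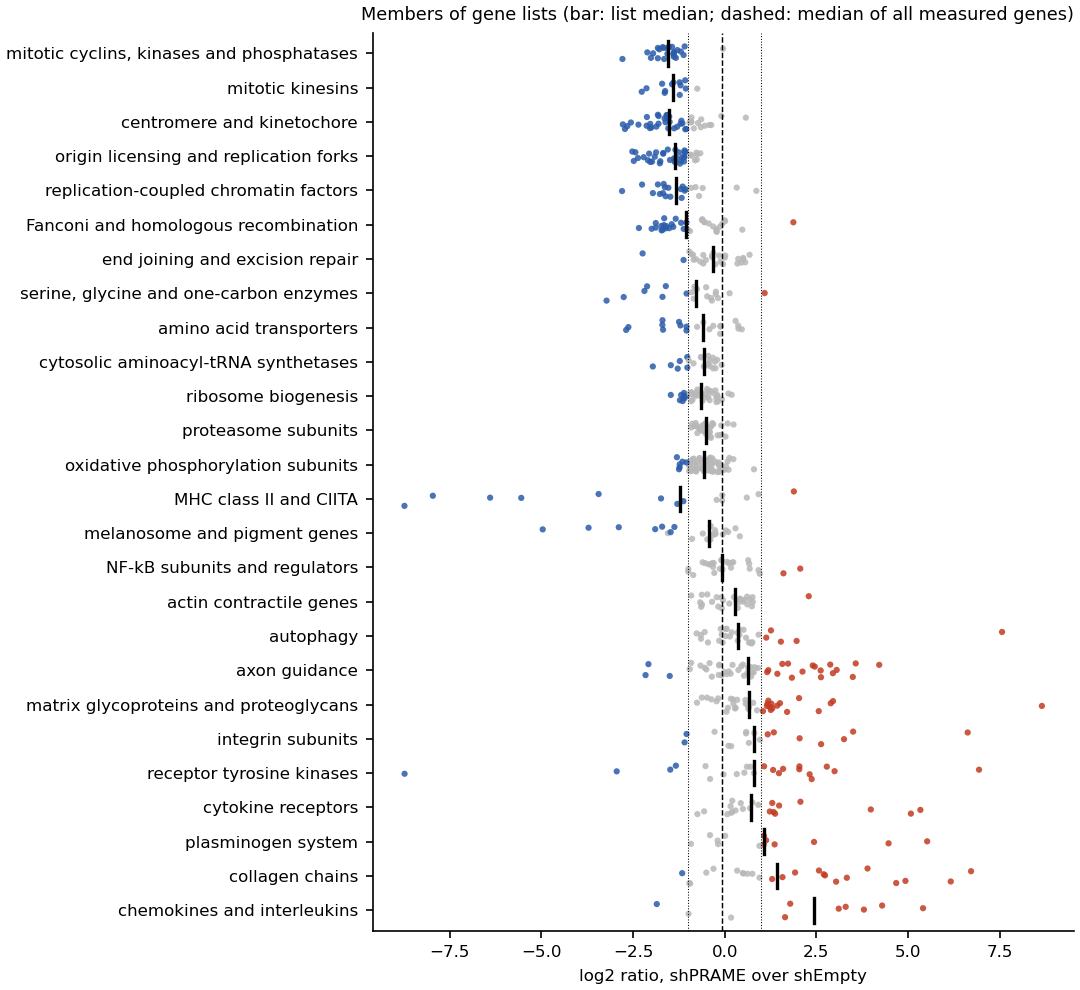
Each point is a measured member of 1 of 26 gene lists on the log2 ratio of shPRAME over shEmpty, coloured where called, with a bar at the list median, a dashed line at the median of all measured genes (-0.06) and dotted lines at the 2-fold limit. The mitotic and replication lists lie left of the limit with medians from -1.54 to -1.34, and chemokines and interleukins have the highest median (2.45).

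Among genes called lower, the largest drop in CPM belonged to TUBA1B, an alpha-tubulin. It was at 2143 CPM in shEmpty, 518 CPM in shPRAME and 1200.3 CPM in shBAP1, 4.14-fold (4.05 to 4.23) lower. Among 23 measured intermediate filament and tubulin genes 8 were called lower and 4 higher, with a median log2 ratio of -0.33. TUBB6 had 240 CPM in shEmpty and 33.5 CPM in shPRAME and TUBA1C 609.9 CPM in shEmpty and 182 CPM in shPRAME. The 4 higher genes were KRT8, STMN2, TUBA1A and MAP1B. TUBA1A, an alpha-tubulin of developing neurons, had 113 CPM in shEmpty and 247 CPM in shPRAME, and MAP1B, a microtubule-associated protein of growing axons, was at 154 CPM in shEmpty, 784 CPM in shPRAME and 83.3 CPM in shBAP1, 5.08-fold (4.88 to 5.29) higher. Vimentin (VIM) fell further in CPM, from 7454 to 4698, but by less than 2-fold, and was not called. Tubulin genes are close paralogs, and how the counting split shared reads is not stated.

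The other large drops in CPM among genes called lower included housekeeping transcripts with folds close to the limit. The chaperone genes HSPA8 (2473 and 1113 CPM) and HSPD1 (1082 and 443 CPM), the prolyl isomerase PPIA (1844 and 817 CPM) and lactate dehydrogenase LDHA (2125 and 849.7 CPM) were each called lower. So were the nucleolar gene NPM1 (1923 and 899 CPM), the ferritin heavy chain FTH1 (1151 and 469 CPM) and the glycolytic enzyme TPI1 (982 and 439.6 CPM). ACAN, the cartilage proteoglycan aggrecan, stood out from this set at 718 CPM in shEmpty, 138 CPM in shPRAME and 47.8 CPM in shBAP1, 5.19-fold (4.97 to 5.42) lower, and was lower still in shBAP1. After removal of length and GC trends HSPA8, PPIA and NPM1 were within the 2-fold limit, and after subtraction of chromosome medians NPM1 and TPI1 were.

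Transcripts of enzymes and carriers that supply amino acids were called lower more often than all measured genes (9.08%). Of 21 serine, glycine and one-carbon enzymes 7 were called lower and 1 higher (median log2 ratio -0.79, or -0.50 with chromosome medians subtracted). PSAT1, the second enzyme of serine synthesis, was at 223 CPM in shEmpty, 23.9 CPM in shPRAME and 93.9 CPM in shBAP1, 9.34-fold (8.46 to 10.3) lower, with shBAP1 between the other libraries. PHGDH, the first enzyme, had 168 CPM in shEmpty and 51.9 CPM in shPRAME, and the mitochondrial folate enzyme MTHFD2 had 211 CPM in shEmpty and 48.7 CPM in shPRAME. ASNS, asparagine synthetase, was at 168 CPM in shEmpty, 36.9 CPM in shPRAME and 45.8 CPM in shBAP1, 4.56-fold (4.2 to 4.96) lower, and its shBAP1 level was close to that of shPRAME.

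Of 21 amino acid transporters 9 were called lower and none higher (median -0.58). SLC7A11, the cystine importer, was at 304 CPM in shEmpty, 49.1 CPM in shPRAME and 127 CPM in shBAP1, 6.18-fold (5.76 to 6.64) lower. SLC1A4, which carries neutral amino acids, was at 309 CPM in shEmpty, 48 CPM in shPRAME and 77.5 CPM in shBAP1, 6.44-fold (6 to 6.92) lower. The large neutral amino acid carrier SLC7A5 and its shared heavy chain SLC3A2 had 358 and 112 CPM and 256 and 111 CPM. All 22 cytosolic aminoacyl-tRNA synthetase genes had ratios below 1, and 6 were called lower (median -0.56). NARS, which charges the asparagine tRNA, was at 376 CPM in shEmpty, 96.6 CPM in shPRAME and 254 CPM in shBAP1, 3.89-fold (3.69 to 4.1) lower.

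ATF4, the factor that raises many of these genes when amino acids are scarce, was itself at 409 CPM in shEmpty, 177 CPM in shPRAME and 243 CPM in shBAP1, 2.31-fold (2.22 to 2.41) lower. Among 29 measured ATF4 and unfolded protein response genes 4 were called lower and 2 higher (median -0.16). CHAC1, which degrades glutathione, was at 17.7 CPM in shEmpty, 2.35 CPM in shPRAME and 1.82 CPM in shBAP1, 7.53-fold (5.47 to 10.6) lower, and the pseudokinase TRIB3 had 94.3 CPM in shEmpty and 32.5 CPM in shPRAME. The chaperone HSPA5, a marker of the other arms of that response, was at 1103 and 926 CPM, and the stress factor DDIT3 at 25.1 and 30.9 CPM. The lower members were ATF4, TRIB3, CHAC1 and CEBPG, and the higher ones ERN1 and DNAJB9, which belong to the other arms of the response.

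The promoters of ASNS and NARS are shown because they hold the CHOP-ATF4 element TGATGNAAN. It is in capitals at 68 to 60 bases before the start in ASNS and at transcribed bases 15 to 23 in NARS, in RefSeq sequence of build GRCh38.p14.
ASNS (chr7:97872384-97872558, minus strand): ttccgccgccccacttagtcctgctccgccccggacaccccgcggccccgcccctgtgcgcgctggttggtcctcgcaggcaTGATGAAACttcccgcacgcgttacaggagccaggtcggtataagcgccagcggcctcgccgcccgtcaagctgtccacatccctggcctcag
NARS (chr18:57621812-57621986, minus strand): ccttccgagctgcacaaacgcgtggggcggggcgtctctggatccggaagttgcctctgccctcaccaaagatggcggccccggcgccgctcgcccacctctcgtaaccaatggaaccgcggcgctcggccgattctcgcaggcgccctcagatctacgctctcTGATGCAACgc
The element, searched on both strands, was in 3.67% of all promoters, 1.56% of promoters of all measured genes, 2.15% of genes called higher and 2.17% of genes called lower. It was in 5 of 14 promoters of cytosolic aminoacyl-tRNA synthetases (35.7%), 3 of 15 of serine, glycine and one-carbon enzymes and 3 of 17 of amino acid transporters (17.6%). Its share was about equal among all genes called lower and all genes called higher.

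The machinery of protein and energy production was shifted by less than the 2-fold limit. None of 33 proteasome subunits was called, yet 30 had ratios below 1 (median -0.51). Of 70 nuclear oxidative phosphorylation subunits 6 were called lower, none higher, and 63 had ratios below 1 (median -0.57). The mitochondrial ribosome had 5 of 74 called lower (median -0.50), the spliceosome core 6 of 40 (median -0.64) and ribosome biogenesis 9 of 42 (median -0.64), with none higher. The shares called lower were thus near or below the 9.08% of all measured genes for oxidative phosphorylation and the mitochondrial ribosome. They were above it for the spliceosome core (15%) and ribosome biogenesis (21.4%). With chromosome medians subtracted 2 genes of the mitochondrial ribosome, 3 of the spliceosome core and 3 of ribosome biogenesis were called lower, and with length and GC trends removed 1 of the mitochondrial ribosome and 3 of oxidative phosphorylation. NDUFV2, a subunit of complex I, was at 174 and 70.3 CPM, and NOP56, of the box C/D ribonucleoprotein, at 358 and 129 CPM. Glycolysis and lactate genes had 5 of 26 called lower (19.2%, median -0.61), or 2 with chromosome medians subtracted and 6 with length and GC trends removed. The TCA cycle had 2 lower and 2 higher of 34 (median -0.31, or -0.20 with length and GC trends removed). PDK4, which holds pyruvate out of that cycle, was higher, at 62.6 CPM in shEmpty, 207 CPM in shPRAME and 15.2 CPM in shBAP1.

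Genes encoding the extracellular matrix were among the groups called higher more often than all measured genes. FN1 (fibronectin) had the largest gain in CPM among genes called higher. It was at 1361 CPM in shEmpty, 10557 CPM in shPRAME and 3205 CPM in shBAP1, 7.76-fold (7.66 to 7.86) higher. SERPINE2, a secreted protease inhibitor, was at 6020.5 CPM in shEmpty, 12659.9 CPM in shPRAME and 5616 CPM in shBAP1, 2.1-fold (2.09 to 2.12) higher, and TIMP1, an inhibitor of matrix metalloproteinases, at 324 CPM in shEmpty, 1737 CPM in shPRAME and 107 CPM in shBAP1, 5.36-fold (5.21 to 5.51) higher. For FN1 the shBAP1 level lay between the other 2 libraries, while TIMP1 was lowest in shBAP1. Of 37 measured matrix glycoproteins and proteoglycans 16 were called higher (10.2% among all measured genes) and none lower, with a median log2 ratio of 0.66. The melanoma proteoglycan CSPG4 had 1295 CPM in shEmpty and 3095 CPM in shPRAME, the linker of hyaluronan HAPLN1 978 CPM in shEmpty and 2171 CPM in shPRAME and the elastic microfibril gene FBN1 20.7 CPM in shEmpty and 84.3 CPM in shPRAME. SPARC, an abundant matricellular protein, did not differ by the limit (2864 and 2963 CPM). CSPG4 was within 2-fold once length and GC trends were removed.

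Collagen chains were higher in 13 of 24 measured genes and lower in 1, with a median log2 ratio of 1.44. COL6A2, a chain of the beaded collagen VI, was at 281 CPM in shEmpty, 1876 CPM in shPRAME and 73.8 CPM in shBAP1, 6.67-fold (6.48 to 6.86) higher. COL1A2, a chain of the main fibrillar collagen, was at 6.35 CPM in shEmpty, 670 CPM in shPRAME and 170.4 CPM in shBAP1, while its partner COL1A1, under the count minimum, had 1 count in shEmpty and 23 in shPRAME. COL12A1 had 3.15 CPM in shEmpty and 31.7 CPM in shPRAME, 10.1-fold (7.7 to 13.4) higher, and COL13A1 1.49 CPM in shEmpty and 22.3 CPM in shPRAME. The basement membrane pair COL4A1 and COL4A2 was not called, with 1023 and 533 CPM and 1521 and 1925 CPM. COL15A1, a collagen of vessel basement membranes, was the 1 lower chain, at 349 CPM in shEmpty, 156 CPM in shPRAME and 7.54 CPM in shBAP1. Of the 17 chains not measured, 6 had at most 3 counts in both libraries.

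Collagen-modifying enzymes had 5 of 19 called higher and none lower (median 0.60, or 0.34 with chromosome medians subtracted). SERPINH1, the collagen chaperone, was at 55 CPM in shEmpty, 346 CPM in shPRAME and 95.2 CPM in shBAP1, 6.29-fold (5.88 to 6.72) higher. The lysyl hydroxylase PLOD1 had 294 CPM in shEmpty and 876 CPM in shPRAME and the prolyl hydroxylase P4HA2 76.6 CPM in shEmpty and 298 CPM in shPRAME, while the crosslinking enzyme LOXL4 was at 1472 and 1433 CPM.

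Laminins and integrins changed in both directions. LAMA4 was at 644 CPM in shEmpty, 1726 CPM in shPRAME and 456 CPM in shBAP1, 2.68-fold (2.63 to 2.74) higher, and LAMA2, the chain of muscle and nerve basement membranes, at 0.907 CPM in shEmpty, 66.6 CPM in shPRAME and 2.29 CPM in shBAP1, 73.4-fold (45.6 to 126) higher. LAMA1, an embryonic alpha chain, was instead at 166 CPM in shEmpty, 3.61 CPM in shPRAME and 61.8 CPM in shBAP1, 45.9-fold (36 to 59.5) lower. The shared chains LAMB1 and LAMC1 were not called (859.7 and 1273, 1034 and 1086 CPM), and all 4 called chains (LAMA1, LAMA2, LAMA3 and LAMA4) were alpha chains. Of 17 integrin subunits 7 were called higher and 2 lower (median 0.81). The collagen-binding ITGA1 was at 69.9 CPM in shEmpty, 793 CPM in shPRAME and 62.4 CPM in shBAP1, 11.3-fold (10.7 to 12) higher, and ITGA3, which binds laminin, at 75.7 CPM in shEmpty, 469 CPM in shPRAME and 139.5 CPM in shBAP1, 6.19-fold (5.85 to 6.55) higher. ITGA6, another laminin receptor subunit, was lower (306 CPM in shEmpty and 149 CPM in shPRAME) and highest in shBAP1 (657 CPM). The beta chains ITGB1 and ITGB3 were at 737 and 1104 CPM and 754 and 1469.9 CPM, below the limit.

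Genes of the plasminogen system had 7 of 13 called higher and none lower (median 1.06). PLAUR, the urokinase receptor, was at 18.2 CPM in shEmpty, 98.6 CPM in shPRAME and 23.3 CPM in shBAP1, 5.42-fold (4.82 to 6.1) higher, and the tissue activator PLAT had 637 CPM in shEmpty and 1332 CPM in shPRAME, whereas urokinase itself (PLAU) had 0 counts in shEmpty and 4 in shPRAME. Matrix proteases and their inhibitors were split, 7 higher and 4 lower of 23 (median 0.35, and 0.75 with a minimum of 10 counts). MMP2 (gelatinase A) was at 22 CPM in shEmpty, 147 CPM in shPRAME and 92 CPM in shBAP1, 6.69-fold (6.03 to 7.44) higher. ADAMTS6 had 8.22 CPM in shEmpty and 94.3 CPM in shPRAME, while ADAMTS1 was at 32.2 CPM in shEmpty, 1.2 CPM in shPRAME and 83.3 CPM in shBAP1, 26.8-fold (17.5 to 43.1) lower, and ADAM19 had 36.2 CPM in shEmpty and 4.05 CPM in shPRAME.

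**Figure D4:**
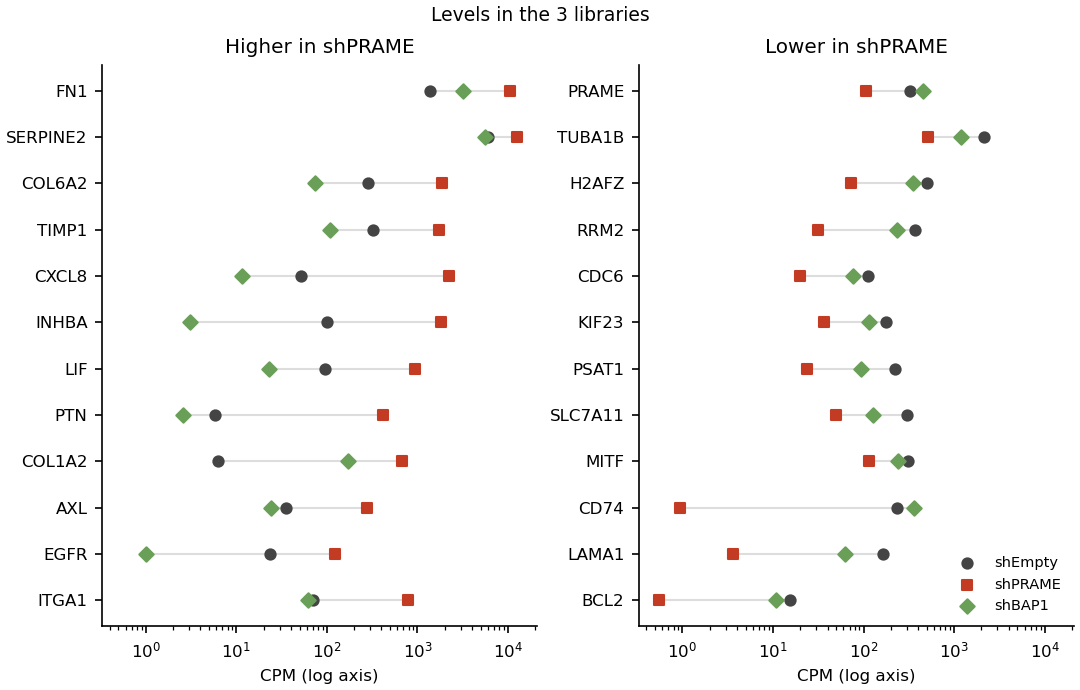
CPM on a log axis in each of the 3 libraries for 12 genes higher and 12 genes lower in shPRAME, 1 symbol for each library. The genes were picked with their values known. For these genes the shPRAME square lies to the right of both other libraries in the left panel and to the left of both in the right panel, PRAME included. Other called genes did not follow this order: S100A4 was higher still in shBAP1, and ACAN was lower still there.

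Adhesion and guidance genes were mostly higher where called. Axon guidance genes had 17 of 48 called higher and 3 lower (5 lower with length and GC trends removed), with a median of 0.63 that became 0.22 once length and GC trends were removed. The receptor EPHB2 was at 40.9 CPM in shEmpty, 340.3 CPM in shPRAME and 7.88 CPM in shBAP1, 8.31-fold (7.71 to 8.97) higher, PLXNA2, a semaphorin receptor, at 64.5 CPM in shEmpty, 499 CPM in shPRAME and 7.01 CPM in shBAP1, 7.74-fold (7.29 to 8.22) higher, and the co-receptor NRP1 at 60.6 CPM in shEmpty, 320 CPM in shPRAME and 33.6 CPM in shBAP1. The ligand SEMA3A had 65.4 CPM in shEmpty and 404 CPM in shPRAME, while netrin 1 (NTN1) had 38.1 CPM in shEmpty and 8.53 CPM in shPRAME and ephrin B2 (EFNB2) 16 CPM in shEmpty and 3.77 CPM in shPRAME. Immunoglobulin adhesion molecules had 5 of 22 higher and 1 lower (median 0.47), with NRCAM at 112 CPM in shEmpty, 328 CPM in shPRAME and 7.81 CPM in shBAP1 and CADM1 at 37.1 CPM in shEmpty, 10.2 CPM in shPRAME and 170.1 CPM in shBAP1. Cadherins and catenins had 3 of 9 higher and none lower (median 0.93, or 0.60 with a minimum of 200 counts), and N-cadherin (CDH2), at 94 and 179.7 CPM, was not called. E-cadherin (CDH1) had 0 counts in shEmpty and 1 in shPRAME. Protocadherins had 6 of 19 higher and 2 lower (median 0.49); the clustered PCDHB genes among them are near-identical copies.

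Contractile genes and the transcription factors of the mesenchymal programme did not share these differences. Of 28 actin contractile genes 1 was called higher, smooth muscle actin (ACTA2, 4.91 CPM in shEmpty and 24.1 CPM in shPRAME), and none lower, with a median of 0.29 that became 0.11 once length and GC trends were removed. Of 18 mesenchymal transcription factors 1 was called higher and 4 lower (median -0.26, or -0.15 with chromosome medians subtracted). SNAI2 was at 124 CPM in shEmpty, 140.1 CPM in shPRAME and 25.5 CPM in shBAP1 and ZEB1 at 145 CPM in shEmpty, 248 CPM in shPRAME and 42.2 CPM in shBAP1, neither called. ETS1, a factor of invasive cells, was at 203 CPM in shEmpty, 71.1 CPM in shPRAME and 347 CPM in shBAP1, 2.85-fold (2.68 to 3.04) lower.

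Growth factor receptors were among the genes with the largest differences in either direction. Of 23 measured receptor tyrosine kinases 11 were called higher and 4 lower, with a median of 0.80 and log2 ratios from -8.73 to 6.94. AXL was at 35 CPM in shEmpty, 279.7 CPM in shPRAME and 24.2 CPM in shBAP1, 7.99-fold (7.36 to 8.68) higher. EGFR was at 23.5 CPM in shEmpty, 122 CPM in shPRAME and 1.01 CPM in shBAP1, 5.18-fold (4.68 to 5.76) higher, and FGFR1 at 26.8 CPM in shEmpty, 110.2 CPM in shPRAME and 5.39 CPM in shBAP1, 4.11-fold (3.72 to 4.54) higher. FGFR2 was at 23.3 CPM in shEmpty, 0.0547 CPM in shPRAME and 0.0674 CPM in shBAP1, on 436 counts in shEmpty and 1 in shPRAME. The VEGF receptors FLT1 (49.3 CPM in shEmpty, 6.4 CPM in shPRAME and 74.4 CPM in shBAP1) and KDR (78.8 CPM in shEmpty, 31.3 CPM in shPRAME and 11.5 CPM in shBAP1) were lower. EGFR, FGFR1 and FGFR2 were also below shEmpty in shBAP1, so for EGFR and FGFR1 the libraries lay on opposite sides of the control, and for FGFR2 on the same side.

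Ligands of these receptors had 6 of 23 called higher and 4 lower (median 0.54), or 1 lower with chromosome medians subtracted. TGFA, a ligand of EGFR, was at 41.3 CPM in shEmpty, 214 CPM in shPRAME and 149 CPM in shBAP1, 5.19-fold (4.8 to 5.61) higher, while EGF had 18.2 CPM in shEmpty and 6.89 CPM in shPRAME and HBEGF 7.53 CPM in shEmpty and 3.5 CPM in shPRAME. PTN (pleiotrophin), a heparin-binding factor, was at 5.87 CPM in shEmpty, 417 CPM in shPRAME and 2.56 CPM in shBAP1, 71-fold (58.9 to 86.6) higher. IGF-binding proteins had 4 of 10 higher and none lower (median 0.79, or 0.49 with a minimum of 200 counts). IGFBP3 was at 78.7 CPM in shEmpty, 449.5 CPM in shPRAME and 31.8 CPM in shBAP1, 5.71-fold (5.41 to 6.04) higher.

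The TGF-beta and activin pathway had 9 of 31 genes called higher and 1 lower (median 0.48, or 0.21 without a count minimum). INHBA, the subunit of activin A, was at 99.6 CPM in shEmpty, 1825 CPM in shPRAME and 3.1 CPM in shBAP1, 18.3-fold (17.5 to 19.2) higher. TGFB1 was at 60.2 CPM in shEmpty, 241 CPM in shPRAME and 23.3 CPM in shBAP1, and LTBP3, which stores latent TGF-beta in the matrix, had 151 CPM in shEmpty and 597 CPM in shPRAME. The antagonist follistatin (FST) was the 1 lower member (137 CPM in shEmpty and 66.6 CPM in shPRAME), and the receptor TGFBR1 was not called (66.2 and 61.1 CPM). The response gene PMEPA1, at 621 CPM in shEmpty, 866 CPM in shPRAME and 62.2 CPM in shBAP1, was not called against shEmpty. INHBA and TGFB1 were both below the control in shBAP1.

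BMP genes had 6 of 20 higher and 1 lower, with a median of 0.06 whose sign changed without a count minimum (-0.14). ID1, a direct BMP target, had 108 CPM in shEmpty and 225 CPM in shPRAME, and BAMBI, a decoy receptor, 182 CPM in shEmpty and 71.2 CPM in shPRAME. The Wnt pathway was split, 6 higher and 5 lower of 23, with a median of -0.08 that became 0.18 with a minimum of 10 counts. LGR4, a receptor for R-spondins, was at 43.7 CPM in shEmpty, 2.35 CPM in shPRAME and 52.3 CPM in shBAP1, 18.6-fold (13.7 to 25.9) lower, and FZD4 at 153 CPM in shEmpty, 28.9 CPM in shPRAME and 40.6 CPM in shBAP1, whereas the co-receptor LRP5 had 45.4 CPM in shEmpty and 139 CPM in shPRAME and the factor TCF7L2 53.6 CPM in shEmpty and 144 CPM in shPRAME. Notch genes had 8 of 18 higher and none lower (median 0.54), or 5 higher and 2 lower with length and GC trends removed, among them JAG1 (14.1 CPM in shEmpty and 39.3 CPM in shPRAME) and NOTCH3 (2.13 CPM in shEmpty and 8.86 CPM in shPRAME), while HES1, a direct target, was not called (43.1 and 60.6 CPM). The YAP and TEAD list had 8 of 25 higher and 2 lower (median 0.47, or 0.29 without a count minimum). Its target CYR61 had 18.3 CPM in shEmpty and 44.2 CPM in shPRAME, and CTGF, at 30.3 CPM in shEmpty, 44.9 CPM in shPRAME and 184 CPM in shBAP1, was not called. AMOTL2, which was called lower, had the lowest log2 ratio of that list, -2.12.

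Lists linked to growth factor and G-protein signals were called higher at shares above the 10.2% of all measured genes. Lower calls, 9.08% of all measured genes, were also above that share among MAPK feedback regulators (16%). Of 24 AP-1 and EGR factors 7 were called higher and 1 lower (median 0.71, or 0.46 with length and GC trends removed). EGR1 was at 155 CPM in shEmpty, 419 CPM in shPRAME and 24.5 CPM in shBAP1, 2.7-fold (2.59 to 2.82) higher, and JUNB at 39.4 CPM in shEmpty, 123 CPM in shPRAME and 33.1 CPM in shBAP1, 3.13-fold (2.88 to 3.4) higher. FOSL1, the AP-1 subunit of invasive melanoma, was at 121 and 73.9 CPM and not called. MAPK feedback regulators had 8 of 25 higher and 4 lower (median 0.40, or 0.22 with length and GC trends removed). The ERK phosphatase DUSP6 was at 246 CPM in shEmpty, 875 CPM in shPRAME and 139 CPM in shBAP1, 3.56-fold (3.45 to 3.68) higher, while DUSP4 had 694 CPM in shEmpty and 344 CPM in shPRAME, a call that ended under total-count, DESeq2 and upper-quartile scaling. G-protein regulators and receptors had 9 of 32 higher and 3 lower (5 lower with length and GC trends removed; median 0.48, or 0.28 with length and GC trends removed), with RGS4 at 29.2 CPM in shEmpty, 578 CPM in shPRAME and 4.11 CPM in shBAP1 and RGS5 at 3.68 CPM in shEmpty, 252 CPM in shPRAME and 4.65 CPM in shBAP1, both inhibitors of G-protein signals.

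Chemokine and interleukin genes had the highest median of the lists with at least 10 measured members, 2.45, with 7 of 10 called higher and 1 lower. Without a count minimum that median was 0.55, since 29 of the 39 listed genes were too scarce to be measured. CXCL8 (interleukin 8), which attracts neutrophils, was at 51.9 CPM in shEmpty, 2208 CPM in shPRAME and 11.5 CPM in shBAP1, 42.6-fold (39.9 to 45.4) higher. LIF, a cytokine of the interleukin 6 family, was at 95.3 CPM in shEmpty, 939 CPM in shPRAME and 23 CPM in shBAP1, 9.85-fold (9.38 to 10.4) higher. Its relatives IL11 (1.39 CPM in shEmpty and 27.2 CPM in shPRAME) and CLCF1 (1.12 CPM in shEmpty and 15.6 CPM in shPRAME) were higher as well, but IL6 had 0 counts in shEmpty and 1 in shPRAME. The receptors of this family were also higher: IL6ST, the shared signalling chain, was at 251 CPM in shEmpty, 704 CPM in shPRAME and 203 CPM in shBAP1, and LIFR had 67.5 CPM in shEmpty and 175 CPM in shPRAME. In all 9 of 22 cytokine receptors were called higher and none lower (median 0.72, or 0.30 without a count minimum).

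The promoter of CXCL8 is shown because the gene had the largest fold among the 15 genes called higher with the largest gains in CPM. The capitals mark an AP-1 site, TGANTCA, which reads as itself on both strands, at 137 to 131 bases before the start (RefSeq, GRCh38.p14). Other elements in this stretch were not marked.
CXCL8 (chr4:73740419-73740593, plus strand): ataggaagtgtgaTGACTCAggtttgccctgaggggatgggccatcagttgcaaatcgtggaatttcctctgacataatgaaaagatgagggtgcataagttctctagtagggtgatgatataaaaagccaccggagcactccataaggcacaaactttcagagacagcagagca
The AP-1 site was in 7.76% of all promoters, 4.37% of promoters of all measured genes, 6.67% of genes called higher and 4.23% of genes called lower.

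NF-kB subunits and regulators, which control CXCL8 in many cells, had 2 of 27 genes called higher, none lower and a median of -0.09 (-0.20 with length and GC trends removed). RELA was at 85.4 and 80.1 CPM and the inhibitor gene NFKBIA at 16.6 and 13.1 CPM. These values are transcript levels, and the activity of NF-kB was not tested. Prostaglandin genes were called in both directions. The phospholipase PLA2G4A was at 39.9 CPM in shEmpty, 269 CPM in shPRAME and 68.7 CPM in shBAP1, 6.75-fold (6.24 to 7.3) higher, PTGS2 (cyclooxygenase 2) at 18.5 CPM in shEmpty, 54.4 CPM in shPRAME and 1.95 CPM in shBAP1, and the terminal synthase PTGES at 31 CPM in shEmpty, 143 CPM in shPRAME and 0.606 CPM in shBAP1, 4.62-fold (4.22 to 5.06) higher. The exporter ABCC4 (159 CPM in shEmpty and 46.2 CPM in shPRAME) and HPGD, which degrades prostaglandins (3.36 CPM in shEmpty and 0.711 CPM in shPRAME), were lower. In all 4 of 12 were called higher, PTGS1 being the fourth, and 5 lower, the others being PTGES3, AKR1C1 and AKR1C2. The median was 0.01 and ranged from -0.37 without a count minimum to 0.54 with a minimum of 200 counts. AKR1C1 and AKR1C2 are near-identical copies, and the call of PTGES3 ended under DESeq2 size factors.

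MHC class II genes, which present antigen to helper T cells, were lower in 8 of 14 cases and higher in 1, with a median of -1.21 (-0.60 with a minimum of 200 counts). CIITA, their transactivator, had 346 counts in shEmpty and 4 in shPRAME. HLA-DRA, the constant chain of the DR molecule, went from 1311 counts in shEmpty to 3 in shPRAME, beside 2120 in shBAP1. The invariant chain CD74 was at 232 CPM in shEmpty, 0.93 CPM in shPRAME and 356 CPM in shBAP1, and HLA-DPA1 at 30.3 CPM in shEmpty, 2.79 CPM in shPRAME and 61.7 CPM in shBAP1, 10.8-fold (8.14 to 14.7) lower. The peptide-loading gene HLA-DMA had 26 CPM in shEmpty and 11.9 CPM in shPRAME. The 1 gene called higher was HLA-DQB1, at 16.3 CPM in shEmpty, 60.2 CPM in shPRAME and 1.15 CPM in shBAP1, 3.7-fold (3.26 to 4.21) higher. Its partner HLA-DQA1 was at 25.8 CPM in shEmpty, 48.9 CPM in shPRAME and 0.808 CPM in shBAP1 and was not called. The RFX factor RFX5, which binds class II promoters with CIITA, was at 85.4 and 81.5 CPM. CIITA, HLA-DRA, CD74 and HLA-DPA1 in shBAP1 were near or above the control, so shPRAME was the low library of the 3. HLA genes are polymorphic and similar, so reads may have been split between them or lost.

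The promoter of HLA-DRB1 is shown because that gene had no count in shPRAME beside 144 in shEmpty. The capitals mark the class II Y box, CTGATTGG, at 49 to 42 bases before the start (RefSeq, GRCh38.p14), which contains a reversed CCAAT box.
HLA-DRB1 (chr6:32589824-32589998, minus strand): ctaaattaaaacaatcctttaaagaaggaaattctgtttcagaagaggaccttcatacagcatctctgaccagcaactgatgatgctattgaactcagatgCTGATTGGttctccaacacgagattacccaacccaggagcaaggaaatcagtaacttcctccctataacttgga
The Y box, searched on both strands, was in 4.16% of all promoters, 5.66% of promoters of all measured genes and 4 of 11 promoters of MHC class II and CIITA (36.4%). Among genes called lower it was in 8.70% and among genes called higher in 4.95%.

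Other surface genes of immune interest differed gene by gene. Complement regulators had 3 of 6 higher and none lower (median 1.03, or 1.68 with a minimum of 200 counts), and CD55, which dismantles complement convertases, was at 118 CPM in shEmpty, 646 CPM in shPRAME and 57.6 CPM in shBAP1, 5.47-fold (5.23 to 5.73) higher. Checkpoint genes and ligands of natural killer cells had 1 of 14 higher and 2 lower (median -0.16). CD200, an inhibitory ligand, went from 95 counts to 6 in shPRAME, and CD276 (B7-H3) was at 263 and 269 CPM. CD274 (PD-L1) had 6 and 10 counts, too few to be measured.

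The melanosome genes that were called were lower, while lineage factors went both ways. Of 22 melanosome and pigment genes 7 were called lower and none higher (median -0.43). RAB38, which sorts pigment enzymes to melanosomes, was at 64.6 CPM in shEmpty, 4.92 CPM in shPRAME and 48 CPM in shBAP1, 13.1-fold (10.6 to 16.4) lower. MYO5A, the motor that carries melanosomes, was at 507 CPM in shEmpty, 182 CPM in shPRAME and 256 CPM in shBAP1, and GPNMB, a melanosomal glycoprotein, at 788 CPM in shEmpty, 305 CPM in shPRAME and 989.7 CPM in shBAP1. The lineage factor MITF was at 309.9 CPM in shEmpty, 114 CPM in shPRAME and 239 CPM in shBAP1, 2.71-fold (2.58 to 2.85) lower, and TFAP2A at 24 CPM in shEmpty, 7.11 CPM in shPRAME and 74.9 CPM in shBAP1. SOX10, which activates MITF, was not called (506 CPM in shEmpty, 657 CPM in shPRAME and 367 CPM in shBAP1), and SOX4 was higher (131 CPM in shEmpty, 449 CPM in shPRAME and 167 CPM in shBAP1). Among 17 lineage factors 2 were higher and 3 lower (median 0.09), and 4 were higher with chromosome medians subtracted. PMEL, a classic pigment marker, had 6 counts in shEmpty and 8 in shPRAME, too few to be measured.

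Neural crest, stem-like and neural genes pointed both ways. PROM1 (CD133) was at 49.8 CPM in shEmpty, 0.438 CPM in shPRAME and 3.23 CPM in shBAP1, 114-fold (57.5 to 264) lower, and ALDH1A1 had 15.5 CPM in shEmpty and 2.73 CPM in shPRAME. GAP43, of growing axons, was at 5.66 CPM in shEmpty, 87.6 CPM in shPRAME and 2.42 CPM in shBAP1, 15.5-fold (12.7 to 19) higher, and NGFR, the neural crest marker CD271, had 0.48 CPM in shEmpty and 1.86 CPM in shPRAME beside 64.2 CPM in shBAP1. Nestin (NES) was at 1263 and 2136 CPM. Synaptic and vesicle genes had 7 of 24 higher and 1 lower (median 0.59), with VGF, a neuropeptide precursor, at 76.2 CPM in shEmpty, 287 CPM in shPRAME and 44.1 CPM in shBAP1, 3.77-fold (3.55 to 4) higher.

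Genes tied to the known roles of PRAME were called at shares near those of all genes. Of 22 CUL2 ligase genes and relatives 1 was called higher and 2 lower, with a median of -0.17. CUL2 was at 71 and 52.1 CPM, and LRR1, another substrate receptor of that ligase, at 22.5 CPM in shEmpty, 4.38 CPM in shPRAME and 17.6 CPM in shBAP1, 5.14-fold (4.03 to 6.61) lower. Of 21 measured retinoic acid receptors and metabolic genes 3 were called higher and 2 lower, against 10.2% and 9.08% of all measured genes, with a median of 0.53 and 17 ratios above 1. STRA6, which takes up retinol, was at 51.7 CPM in shEmpty, 325 CPM in shPRAME and 1.95 CPM in shBAP1, and LRAT, which stores it as an ester, had 5.18 CPM in shEmpty and 14.8 CPM in shPRAME. The receptor RARA had 17.2 CPM in shEmpty and 36.7 CPM in shPRAME, a call that ended with chromosome medians subtracted or length and GC trends removed, RARB was at 14.6 and 28.3 CPM, and RXRG was lower (233 CPM in shEmpty, 79.4 CPM in shPRAME and 82.5 CPM in shBAP1). STRA6 was lower than the control in shBAP1, opposite to shPRAME.

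Other cancer-testis antigens had 3 of 15 called higher and 1 lower, with a median of -0.15 that became 0.11, of opposite sign, with length and GC trends removed. MAGEC2 was at 30.8 CPM in shEmpty, 97.7 CPM in shPRAME and 72.8 CPM in shBAP1, 3.17-fold (2.88 to 3.48) higher, while MAGEA4 (347 and 306 CPM) and MAGEA3 (109 and 72.3 CPM) were not called. MAGE genes are near-identical copies and their values are uncertain. Polycomb subunits and their partners had 2 of 41 higher and 6 lower (median -0.19). EZH2, the histone methyltransferase that also stands in the list of replication-coupled chromatin factors, was at 85.3 CPM in shEmpty, 29.4 CPM in shPRAME and 59.1 CPM in shBAP1, 2.9-fold (2.63 to 3.2) lower, and BAP1 was at 100 CPM in shEmpty, 97.9 CPM in shPRAME and 35.2 CPM in shBAP1. HOX genes had 4 of 24 higher and 1 lower (median 0.32, or 0.07 with a minimum of 200 counts), or 2 higher with chromosome medians subtracted, HOXA5 among the higher ones at 11.3 and 45.1 CPM.

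p53 targets had 5 of 30 called higher and 3 lower (median 0.27, or 0.17 with length and GC trends removed). These are 16.7% and 10%, against 10.2% and 9.08% of all measured genes. BTG2, an antiproliferative gene, was at 6.56 CPM in shEmpty, 33.3 CPM in shPRAME and 10.2 CPM in shBAP1, 5.07-fold (4.17 to 6.2) higher, while MDM2 was at 287 and 215 CPM. Of 18 BCL2 family genes 1 was higher (5.56%) and 2 lower (11.1%), with a median of -0.22. BCL2 itself had 15.3 CPM in shEmpty and 0.547 CPM in shPRAME, while the antiapoptotic MCL1 was at 421 and 659.9 CPM and not called.

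Lysosome and cholesterol genes were called higher at shares near the 10.2% of all measured genes. Metabolic and lysosomal hydrolases had 4 of 42 higher and 2 lower (median 0.19), and CTSB (cathepsin B) was at 815 CPM in shEmpty, 2468 CPM in shPRAME and 379 CPM in shBAP1, 3.03-fold (2.97 to 3.08) higher. Autophagy genes had 5 of 30 higher and none lower (median 0.36, or 0.15 with chromosome medians subtracted), among them GABARAPL1 (12.6 CPM in shEmpty and 49.1 CPM in shPRAME) and the receptor NBR1 (211 CPM in shEmpty and 463 CPM in shPRAME). Cholesterol genes had 3 of 30 higher and none lower (median 0.01). NRF2, glutathione and iron genes were lower in 5 of 36 and higher in 1 (median -0.45), with thioredoxin reductase TXNRD1 at 479 CPM in shEmpty, 123 CPM in shPRAME and 376 CPM in shBAP1, 3.89-fold (3.72 to 4.08) lower.

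Several genes outside the lists ranked high by interval bound or by their difference in CPM. EDN3, an endothelin that acts on melanocytes, was at 1.07 CPM in shEmpty, 74.2 CPM in shPRAME and 0.269 CPM in shBAP1, 69.5-fold (44.8 to 114) higher, and NLRP1, an inflammasome sensor, went from 4 counts in shEmpty to 504 in shPRAME, beside 695 in shBAP1. ACPP, prostatic acid phosphatase, was at 3.9 CPM in shEmpty, 193 CPM in shPRAME and 7.88 CPM in shBAP1, 49.6-fold (39.4 to 63.5) higher. The scaffold AKAP12 was at 399 CPM in shEmpty, 2013 CPM in shPRAME and 205 CPM in shBAP1, 5.05-fold (4.92 to 5.18) higher, and VAT1L at 208 CPM in shEmpty, 1407 CPM in shPRAME and 2.42 CPM in shBAP1, 6.78-fold (6.55 to 7.01) higher. On the lower side the secreted matrix protein SPON2 was at 125 CPM in shEmpty, 5.2 CPM in shPRAME and 16 CPM in shBAP1, 24.1-fold (19.6 to 29.9) lower. The adhesion and signalling protein CDCP1 was at 249.3 CPM in shEmpty, 18.5 CPM in shPRAME and 113 CPM in shBAP1, 13.4-fold (12 to 15.1) lower, and KCTD12, an auxiliary subunit of GABA-B receptors, at 72.5 CPM in shEmpty, 3.06 CPM in shPRAME and 26.5 CPM in shBAP1, 23.7-fold (18.1 to 31.5) lower. Of these genes NLRP1 was far above the control in shBAP1 too, whereas EDN3, VAT1L and AKAP12 were below it there. Of 28 long non-coding RNAs in the lists 5 were called higher and 5 lower (3 lower with either trend or chromosome correction). The nuclear RNAs NEAT1 (2191 CPM in shEmpty, 5418 CPM in shPRAME and 3774 CPM in shBAP1) and MALAT1 (1061 CPM in shEmpty, 2433 CPM in shPRAME and 1238 CPM in shBAP1) were among the 15 genes called higher with the largest gains in CPM.

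Ratios differed between chromosomes. The median log2 ratio was 0.39 on chromosome 7, where 19.6% of 603 genes were called higher and 3.98% lower. It was -0.63 on chromosome 13 (5.74% higher and 28.2% lower of 209 genes) and -0.68 on chromosome 18 (3.03% higher and 28.5% lower of 165 genes). Chromosome 12 had -0.34, and the remaining chromosomes lay between -0.28 and 0.16. In windows of 50 neighbouring genes the lowest median was -0.84 on chromosome 13, from BAGE5 to STARD13, and the highest 0.68 on chromosome 7, from WBSCR27 to TMEM243. The 1 run of at least 5 adjacent genes called the same way was on chromosome 7, with 6 genes higher: GNG11, BET1, COL1A2, CASD1, SGCE and PPP1R9A. Chromosomes were matched by symbol to RefSeq (GRCh38.p14) for 11829 of the measured genes. HMGB1, KCTD12 and DCT lie on chromosome 13, LAMA1 and BCL2 on chromosome 18, and INHBA, COL1A2, RELN and PTN on chromosome 7, and the part of their chromosome in their ratios was not tested beyond the subtraction of its median. With chromosome medians subtracted 1300 genes were called higher and 902 lower, and the mitotic cyclins, kinases and phosphatases still had 21 of 24 lower and the collagen chains 13 of 24 higher.

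**Figure D5:**
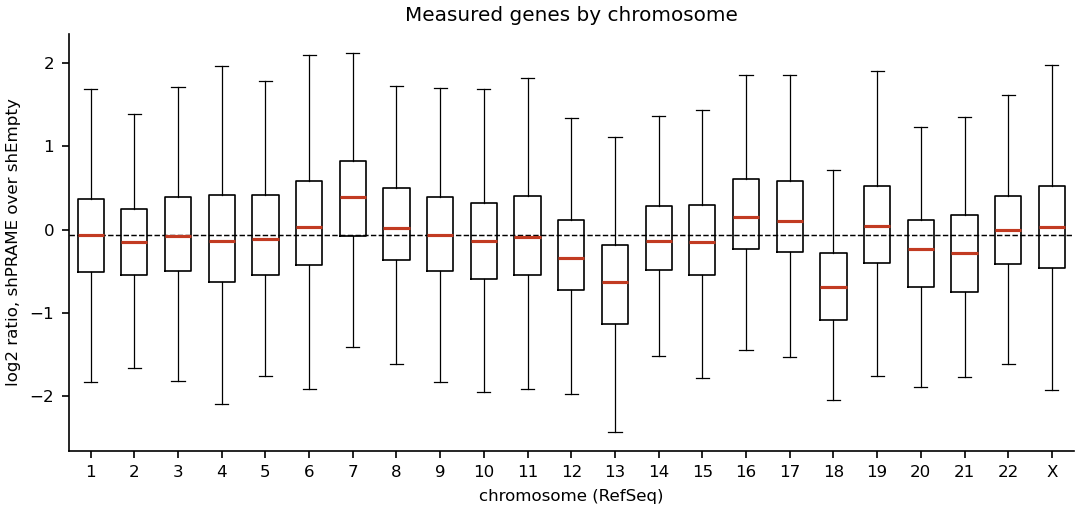
Log2 ratios of shPRAME over shEmpty for measured genes by RefSeq chromosome; the box spans the quartiles with the median in red, whiskers reach the farthest gene within 1.5 box lengths, points beyond are not drawn, and the dashed line is the median of all measured genes (-0.06). Chromosomes 13 and 18 lie lower (medians -0.63 and -0.68) and chromosome 7 higher (0.39).

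Transcript properties moved with the ratio to a smaller degree. The fifth of genes with the shortest transcripts had a median log2 ratio of -0.19 and the fifth with the longest 0.02. The fifth richest in GC had 0.19 and the poorest -0.15. Their part in the results was not tested beyond the removal of these trends, which left 1147 genes higher and 1003 lower, with 29 of 39 genes of origin licensing and replication forks lower and 12 of 24 collagen chains higher. Among genes described above it also ended the calls of FST, HLA-DMA, ITGA6, NDUFV2 and PTGES3. Subtraction of chromosome medians ended those of DNAJB9, FST, HBEGF, ITGA6, NDUFV2 and PTGES3, and a pseudocount of 1 CPM those of HBEGF, NGFR and PTGES3. The calls of FST and PTGES3 ended under total-count and upper-quartile scaling too, and that of ITGA6 under upper-quartile scaling.

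All 11 markers of the line were measured, 2 called higher (AXL and EGFR) and 3 lower (TFAP2A, PRAME and MITF), with SOX10, VIM and NES not called, and the markers of other cell types were scarce apart from single genes. Of 14 fibroblast markers 6 were measured, 4 higher and none lower, and their list summed to 77.5 CPM in shEmpty, 815 in shPRAME and 284 in shBAP1. COL1A2 alone made up 670 CPM of the shPRAME sum, and PDGFRB had 3.9 CPM in shEmpty and 19.4 CPM in shPRAME. Of 12 endothelial markers 3 were measured, 1 called higher at a log2 ratio of 6.94 and 1 lower (KDR, -1.33). The 12 summed to 84.4, 57.4 and 21.4 CPM in that order, with PECAM1 and CDH5 at 0 counts in shEmpty and shPRAME. The 12 keratinocyte and epithelial markers summed to 35.1, 29.2 and 54.3 CPM, with KRT14 at 3 and 2 counts. The 14 leukocyte markers summed to 53.2, 153 and 65.8 CPM, nearly all of it CD68, a lysosomal protein (49 CPM in shEmpty and 144 CPM in shPRAME), with CD3E at 0 counts in every library. The part of the fibroblast marker sum in the matrix results was not tested.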

How the data were processed

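RNA was measured in 3 libraries, 1 for each hairpin vector, from a directional kit with paired reads of 100 bases, per the labels' protocols. The authors deposited 1 table of raw read counts for 24424 genes. The tools FastQC, TopHat, Cufflinks and edgeR and the build hg19 (GRCh37) are named in the submitters' processing notes; not given in the sources used here are the counting tool, the annotation and the strand setting, so overlapping and antisense genes and near-identical copies are uncertain.

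Counts were scaled with TMM factors over the 3 libraries (edgeR 4.0.16 in R 4.3.3). Ratios took exact conditional binomial intervals of 95% and levels exact Poisson intervals (scipy 1.17.1). A gene without a count was set at a floor of 3 counts in that library. Genes needed a mean count of at least 50. The members and the 85 gene lists were chosen with earlier results of these data known. Named genes are PRAME, the 15 called genes each way with the largest CPM difference, ranks 11 to 25 each way by the interval bound nearest 1, and from each list the first 2 members, up to 8 called members each way by size and up to 3 uncalled members with the highest CPM. Genes that bound a window or a run along a chromosome, and those at the count minimum, fall outside this rule and were picked with their values known. The rule gave 849 measured genes besides PRAME. Many of them were left out of the text, a choice made with their values known.

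Symbols were matched to RefSeq (GRCh38.p14), which gave a chromosome for 11829 and a promoter for 9662 measured genes. The method was run on simulated counts that held counting error only. They had no spread between cultures, so the simulation does not test the calls against that spread. Alternatives were other scalings (DESeq2 1.42.0 size factors among them), a pseudocount, other count minimums and fold limits, a stricter interval rule and, added after the data were seen, subtraction of chromosome medians and removal of trends with transcript length and GC content.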

Additional observations from a re-analysis of the deposited data

How the results depend on the processing

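The number of genes called higher was 1903 with a minimum mean count of 10, 700 with a minimum of 200 and 2301 with no minimum, against 1225. The number called lower was 1348, 834 and 1473 in that order, against 1086, so with a minimum of 200 more genes were lower than higher. With a 1.5-fold limit 2321 genes were called higher and 2582 lower, and with a 3-fold limit 592 and 399. These settings test more or fewer genes or set another limit by construction. Under total-count, upper-quartile and DESeq2 scaling, TMM of the 2 libraries, a pseudocount of 1 CPM, the whole interval beyond 2-fold, subtracted chromosome medians and removed length and GC trends, both counts stayed within 1.5 times of the reported ones, and PRAME kept its direction and its call. Upper-quartile scaling gave 1400 genes higher and 916 lower. No setting turned the direction of a called gene among those named by the rule, and 512 of the recomputed values of named genes lost a call, 243 of them under the 3-fold limit. Among measured genes 5 were at least 2-fold apart with an interval that included 1. The count minimum keeps that number small and left 12469 genes unmeasured, so it does not show how far depth limited the calls. The lack of replicates is the main limit, since counting intervals do not hold the spread between cultures. No paired analysis was possible because each group is 1 library.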

Other observations

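Further gene groups held called genes in both directions or in 1, against 10.2% higher and 9.08% lower among all measured genes. Of 14 measured TNF superfamily genes 4 were called higher and 2 lower, with a median log2 ratio of 0.29 that became 0.89 with a minimum of 200 counts. The TWEAK receptor TNFRSF12A was at 37.3 CPM in shEmpty, 122 CPM in shPRAME and 60.1 CPM in shBAP1, 3.27-fold (3.003 to 3.57) higher, and its ligand TNFSF12 was at 2.19 CPM in shEmpty, 4.81 CPM in shPRAME and 2.22 CPM in shBAP1, a call that ended with a pseudocount of 1 CPM. TNFRSF19, an orphan receptor of the family, was at 42.7 CPM in shEmpty, 9.35 CPM in shPRAME and 82.9 CPM in shBAP1, 4.57-fold (3.87 to 5.42) lower. S100 proteins and annexins had 4 of 17 higher and none lower (median 0.22, or 0.02 with a minimum of 200 counts). S100A16 was at 57.3 CPM in shEmpty, 167 CPM in shPRAME and 75.9 CPM in shBAP1, 2.91-fold (2.71 to 3.12) higher, and S100A4 at 124 CPM in shEmpty, 284 CPM in shPRAME and 498 CPM in shBAP1, whereas S100B, a melanoma serum marker, was at 72.4 and 43.2 CPM and was not called.

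Heat shock and lipid genes were called at shares near those of all measured genes. Heat shock chaperones had 4 of 30 higher and 3 lower (median -0.49). The small chaperones HSPB8 (3.63 CPM in shEmpty, 24.4 CPM in shPRAME and 25.5 CPM in shBAP1) and CRYAB (0.854 CPM in shEmpty, 6.29 CPM in shPRAME and 7.41 CPM in shBAP1) were called higher in shPRAME and were also above the control in shBAP1, while the mitochondrial pair HSPD1 and HSPE1 was lower in shPRAME (HSPE1 had 235 CPM in shEmpty and 95.1 CPM in shPRAME, a call that ended with length and GC trends removed). Fatty acid and lipid storage genes had 4 of 37 higher and 3 lower (median 0.15, or 0.03 with length and GC trends removed). The fatty acid carrier CD36 was at 3.79 CPM in shEmpty, 38.1 CPM in shPRAME and 34.2 CPM in shBAP1, 10.1-fold (7.87 to 13) higher, and the nuclear receptor PPARG at 14.2 CPM in shEmpty, 46.1 CPM in shPRAME and 4.65 CPM in shBAP1, while fatty acid synthase (FASN) was at 925 and 1040.3 CPM. Voltage-gated channels had 5 of 20 higher and 3 lower (median 0.16, or -0.01 with a minimum of 200 counts), and KCNS3, a modulatory potassium channel subunit, was at 16 CPM in shEmpty, 0.82 CPM in shPRAME and 25.3 CPM in shBAP1, 19.5-fold (11.6 to 35.2) lower. Homeobox genes outside the HOX clusters, T-box and GATA genes had 6 of 32 higher and 1 lower (median 0.14, or 0.01 with a minimum of 10 counts). The lower one was EMX2, a forebrain homeobox gene, with 229 counts in shEmpty, 0 in shPRAME and 15 in shBAP1.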
